A study of Mus musculus with 31 samples.

Results

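The BCL2 family is the set of proteins that decides whether the outer mitochondrial membrane is opened, and it was followed here through 10 genes picked by name among the 46072 genes of each expression table. They were 6 pro-death genes, made of the effectors Bax and Bak1 and the BH3-only genes Bbc3, Pmaip1, Bid and Bcl2l11, and 4 pro-survival genes, Bcl2, Bcl2l1, Mcl1 and Bcl2a1b. All 10 were above the expression filter in both tumor models, so each was tested in every comparison.

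The effectors BAX and BAK form pores in the outer mitochondrial membrane, which release cytochrome c and start the caspase cascade of intrinsic apoptosis. The BH3-only proteins PUMA (Bbc3), NOXA (Pmaip1), BID and BIM (Bcl2l11) sense damage or other stress and bind to the remaining members, while BCL2, BCL-XL (Bcl2l1), MCL1 and A1 (Bcl2a1b) hold the effectors and BH3-only proteins in check. Ionizing radiation breaks DNA and activates p53, a transcription factor for which Bbc3, Pmaip1 and Bax are known targets, and much of the control of these proteins takes place after transcription, which mRNA does not show.

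RM-9 is a mouse prostate cancer line and MC-38 a mouse colon cancer line. Each was grown under the skin of the right hind leg of wild-type male C57BL/6J mice, so the tumors were transplants outside their organ of origin. Irradiated tumors received 1 local dose of 15 Gy (RT) and were taken 3 h, 12 h or 24 h later. Control tumors were not irradiated and are labelled 3 h, which leaves the later groups without an untreated group of their own time. Each group held 4 mice, except for RM-9 at RT 24 h with 3, which gave 15 RM-9 and 16 MC-38 libraries at 1 per mouse. The tissue was whole tumor, so a lower level of a transcript can be fewer cells of a type or less of it per cell, and these cannot be told apart.

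Depth was 21.4 to 29.4 M reads per library. Values are deposited TPM (transcript levels corrected for length and set to the same total in every library), and mitochondrially encoded genes took 22.5% to 57.2% of that total. Their share was 47.3% to 57.2% in RM-9 and 22.5% to 40.6% in MC-38 tumors, and mt-Nd4l alone took 12.9% to 43.5% over all libraries. The MC-38 control tumor of mouse 1 stood apart, with a mitochondrial share of 40.6% and a summed level of 8 skeletal muscle markers of 13171 TPM, the highest of its group. Because the total is shared, the median of all genes moved between groups by −0.19 (log2) at RT 12 h in RM-9 tumors, and in MC-38 tumors by 0.19 at RT 3 h, 0.33 at RT 12 h and 0.22 at RT 24 h. Changes are therefore given on the deposited scale and again after median-ratio scaling, which sets the typical gene equal between libraries. The colon genes Cdx1 and Cdx2 were listed at 0 in MC-38 tumors, and the prostate gene Pbsn in RM-9 tumors, so these defining markers of the organs of origin were absent from the values.

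In control tumors the members spanned a wide range of levels. Compared per length, as TPM allows, Bax was highest in RM-9 controls at 162 ± 26.6 TPM (SD, n = 4), followed by Mcl1 at 53.2 ± 2.89, Bak1 at 38.5 ± 3.17, Bcl2l1 at 30.3 ± 0.985, Pmaip1 at 30.2 ± 6.06 and Bcl2a1b at 24.7 ± 2.56 TPM. Bbc3 at 14.4 ± 1.15, Bid at 10.8 ± 1.34, Bcl2l11 at 4.67 ± 0.697 and Bcl2 at 2.56 ± 0.355 TPM were lower. Bcl2l1, Pmaip1 and Bcl2a1b were not separated beyond the spread of Pmaip1. In MC-38 controls Bak1 at 122 ± 23.0, Bax at 119 ± 21.2 and Mcl1 at 100.3 ± 18.5 TPM formed the top and were not separated beyond their spread, nor were Bid at 30.9 ± 6.74, Bcl2l1 at 28.1 ± 4.59 and Bcl2a1b at 27.5 ± 5.54 TPM. Below them stood Bbc3 at 13.6 ± 2.53, Bcl2l11 at 7.15 ± 1.92, Bcl2 at 1.65 ± 0.409 and Pmaip1 at 1.62 ± 0.358 TPM. The order of levels between members has a limit of its own, since the deposited value of Bbc3 was 2.08 times, of Bcl2l11 1.90 times, of Bcl2l1 1.88 times and of Bid 1.65 times the one implied by the gene's mean coverage.

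**Figure D1:**
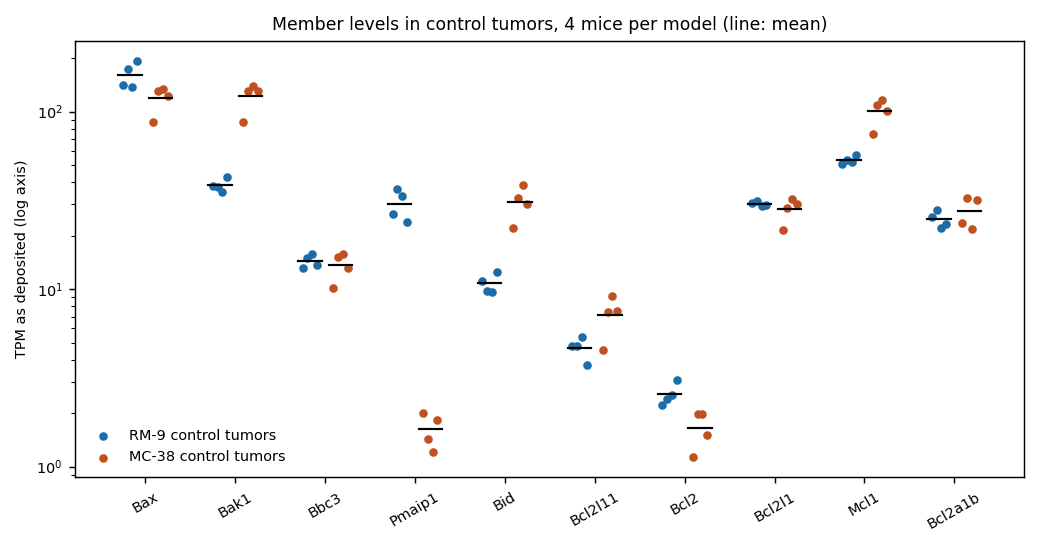
TPM of the 10 members in each control tumor on a log axis, with RM-9 and MC-38 tumors side by side (points, single mice; bars, group means). Pmaip1 was the member most apart between the models, at 23.8 to 36.8 TPM in RM-9 and 1.22 to 2.00 TPM in MC-38 controls, while Bak1 and Bid were higher in MC-38 controls.

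The starting set of pro-death genes differed between the models. Pmaip1 held 26.5, 36.8, 33.6 and 23.8 TPM in the RM-9 controls and 2.00, 1.44, 1.22 and 1.84 TPM in the MC-38 controls, so the 2 sets of mice were far from overlapping. The difference was −3.85 ± 0.16 (log2, SE; limma adjusted p = 2.52e-17) and −4.43 after median-ratio scaling. Bak1 was higher in MC-38 controls by 1.63 ± 0.12 (limma adjusted p = 1.26e-12; 0.97 after scaling), Bid by 1.46 ± 0.13 (limma adjusted p = 8.37e-11; 0.81 after scaling) and Mcl1 by 0.89 ± 0.12 (limma adjusted p = 1.21e-07; 0.22 after scaling). Bax and Bcl2 were lower in MC-38 controls by −0.45 ± 0.13 and −0.53 ± 0.16 (limma adjusted p = 0.00208 and 0.00413), and by more after scaling, at −1.12 and −1.07 (limma adjusted p = 3.73e-11 and 5.58e-09). In all, 7 of 10 members passed the test, against 75.4% of all genes tested, and 8 of 10 after scaling, against 65.6%. The mice of the models did not overlap for 6 of 10 members, against 60.0% of all genes, so members differed about as often as other genes did. The median of all genes was higher in MC-38 by 0.63 on the deposited scale, and Bcl2l11, higher by 0.54 there (limma adjusted p = 0.00803), was at −0.08 after scaling (adjusted p = 0.615). Bbc3 and Bcl2l1, at −0.09 and −0.12 on the deposited scale, passed after scaling at −0.74 and −0.78 (limma adjusted p = 1.11e-06 and 1.77e-09). Tumor model and processing batch cannot be told apart in these levels.

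Among 12 other targets of p53 that act in arrest and feedback, 8 were lower and 2 higher in MC-38 than in RM-9 controls, and 10 lower and 1 higher after scaling. Mdm2, the ubiquitin ligase that degrades p53, stood at 644 ± 193 TPM in RM-9 and 15.6 ± 3.22 TPM in MC-38 controls (−5.29, limma adjusted p = 1.11e-19). Zmat3, a target that binds RNA, stood at 18.1 ± 1.49 and 2.77 ± 0.582 TPM (−2.53, limma adjusted p = 1.42e-15). Pmaip1 and Bax thus were on the same side as most of this list, whereas Bbc3, another known p53 target, passed only after scaling.

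After RT, members moved little in RM-9 tumors. None of the 10 passed the test at RT 3 h, 12 h or 24 h against control with limma on the deposited scale, where 0.228%, 8.37% and 0.00% of all genes passed. At an unadjusted p under 0.05 there were 3, 4 and 0 members. In MC-38 tumors 0, 3 and 1 members passed, against 0.0637%, 31.1% and 13.8% of all genes. The 3 at RT 12 h were Bid and Bcl2, which rose, and Bcl2a1b, which fell, and the 1 at RT 24 h was Bcl2l11, which rose. At RT 3 h in MC-38 tumors the 0 members stood beside 4 at an unadjusted p under 0.05. The median change of the 10 members was 0.06, −0.20 and 0.04 (log2) at the 3 times in RM-9 and 0.22, 0.25 and 0.15 in MC-38 tumors, beside 0.06, −0.19 and −0.04 and 0.19, 0.33 and 0.22 for all genes, so the members' medians stayed within 0.1 of those of all genes.

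**Figure D2:**
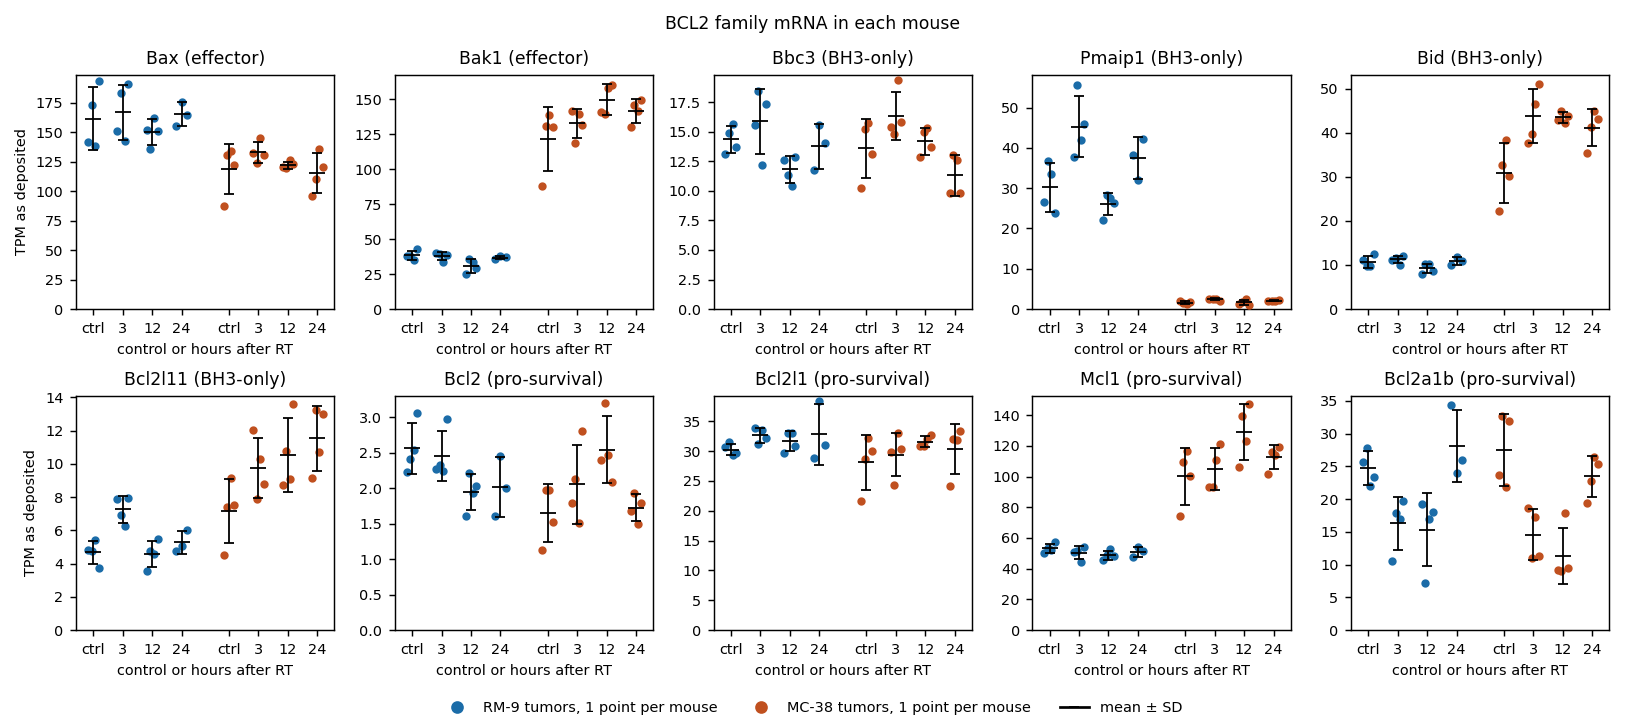
TPM of each member in each mouse by group and tumor model (points, single mice; bars, group means ± SD; linear axes from 0). Bcl2a1b was lower in every RT 3 h and RT 12 h tumor than in any control of its model, and Pmaip1 and Bcl2l11 were higher in every RM-9 RT 3 h tumor than in any RM-9 control.

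Neither effector passed the test against control at any time on the deposited scale. Bax lies on the minus strand of chromosome 7 (chr7:45461695-45466898, ENSMUSG00000003873). It held 141, 173, 138 and 194 TPM in RM-9 controls, 151.3, 183, 142 and 191 TPM at RT 3 h, 152, 136, 162 and 151.03 TPM at RT 12 h and 156, 176 and 165 TPM at RT 24 h. Its RM-9 groups overlapped at every time, with changes from control of 0.05, −0.09 and 0.04. In MC-38 tumors Bax held 87.8, 131, 134 and 122 TPM in controls, with mouse 1 lowest, and 133, 124, 145 and 131 TPM at RT 3 h. It then held 120.2, 119, 126 and 123 TPM at RT 12 h and 95.8, 110.2, 136 and 121 TPM at RT 24 h. On this scale the MC-38 groups overlapped too, with changes of 0.18, 0.06 and −0.03. After median-ratio scaling, which raised control mouse 1 to 134 against 130.3 to 137 in the other 3, Bax was lower at RT 12 h by −0.29 ± 0.07 (limma adjusted p = 0.0203) and at RT 24 h by −0.29 (limma adjusted p = 0.0160). The latter passed with each mouse left out in turn, 8 of 8 times, and the former 4 of 8 times, missing without mouse 1 or 4 of the control or mouse 2 or 4 of the RT 12 h group (adjusted p = 0.0510 to 0.0588). In 6.84% of the 75-base stretches of Bax transcripts the sequence is shared with the gene model Gm45808, so its reads may be split.

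The window at the start of Bax is shown because Bax is a known p53 target with no rise that passed on either scale. It runs from 250 bases before to 50 bases after the start, from RefSeq on GRCm38.p6 at chr7:45466849-45467148, minus strand, 5′ to 3′. Capitals mark its match to the p53 half-site consensus, 201 bases before the start. Both strands were searched, and 8.36% of 32851 windows of this kind in the RefSeq table hold such a match. Among 14 windows of 9 members, this was the only match, and no window of Pmaip1 was used here. A match is a description of the letters, and nothing is read from it about binding.
Bax: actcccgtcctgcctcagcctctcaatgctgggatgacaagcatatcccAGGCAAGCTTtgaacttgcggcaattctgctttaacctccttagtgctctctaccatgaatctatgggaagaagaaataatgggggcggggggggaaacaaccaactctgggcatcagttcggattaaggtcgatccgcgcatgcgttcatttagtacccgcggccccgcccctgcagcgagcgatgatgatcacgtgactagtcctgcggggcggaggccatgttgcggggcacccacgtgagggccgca

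Bak1, on chromosome 17 (chr17:27019810-27029009, minus strand, ENSMUSG00000057789), is the second effector and is normally held at the mitochondrial membrane. In RM-9 tumors it held 38.0, 37.6, 35.4 and 42.9 TPM in controls, 40.1, 39.4, 33.3 and 38.6 TPM at RT 3 h, 24.9, 35.5, 34.0 and 29.0 TPM at RT 12 h and 35.5, 38.0 and 36.9 TPM at RT 24 h. The RT 12 h mice were lowest and their range just touched that of the controls (−0.32 ± 0.11, limma adjusted p = 0.0654; −0.11 after scaling). In MC-38 tumors it held 87.8, 131, 139 and 129.8 TPM in controls and 141, 139.5, 158 and 160.3 TPM at RT 12 h. All 4 RT 12 h mice were above all controls, but the change of 0.32 ± 0.12 did not pass (limma adjusted p = 0.0605), was near the 0.33 of the typical gene, and was −0.03 after scaling.

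Of the BH3-only genes, Bcl2l11 and Pmaip1 were the members with separated groups 3 h after RT in RM-9 tumors. Bcl2l11, which encodes BIM and binds every pro-survival protein of the family, held 4.81, 4.76, 5.40 and 3.73 TPM in RM-9 controls, 7.90, 6.91, 6.29 and 7.97 TPM at RT 3 h, 3.54, 4.74, 4.55 and 5.47 TPM at RT 12 h and 4.75, 5.04 and 6.03 TPM at RT 24 h. All 4 RT 3 h mice were above all controls, and the later groups were back among them. The difference at RT 3 h was 0.59 ± 0.14 and did not pass on the deposited scale (limma adjusted p = 0.0811; exact permutation p = 0.0286, the smallest that 4 mice against 4 can give). It passed after median-ratio scaling at 0.52 ± 0.12 (limma adjusted p = 0.0431), and with 1 mouse left out in turn only without control mouse 3, at 1 of 8. Without the other mice the adjusted p on that scale was 0.0565 to 0.119.

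Pmaip1, which encodes NOXA, a partner mainly of MCL1 and A1, held 37.6, 55.5, 41.9 and 45.9 TPM at RT 3 h in RM-9 tumors against 26.5, 36.8, 33.6 and 23.8 TPM in controls. It held 22.0, 28.2, 27.6 and 26.3 TPM at RT 12 h and 38.3, 32.0 and 42.3 TPM at RT 24 h. The RT 3 h mice were all above the controls, and both later groups overlapped with them. The change at RT 3 h was 0.58 ± 0.15 (limma adjusted p = 0.105) and 0.51 after scaling (adjusted p = 0.0716), so it did not pass on either scale. Skeletal muscle markers also differed between these groups. The 8 genes summed to 268 to 2572 TPM in RM-9 controls, 4.08 to 1000.3 TPM at RT 3 h, 3.51 to 1054.8 TPM at RT 12 h and 253 to 2589 TPM at RT 24 h. Their median change was −4.53 at RT 3 h and −3.95 at RT 12 h, with 0 of 8 past the limma test and 8 at an unadjusted p under 0.05 at each time, and their part in the values of Bcl2l11 and Pmaip1 was not tested. Not overlapping with the controls at RT 3 h were 3 of 10 members, against 12.8% of all genes, and at RT 12 h 3 of 10, against 19.7%, and none at RT 24 h, against 4.25%.

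From RT 3 h to RT 12 h, 4 members fell in RM-9 tumors on the deposited scale, against 28.7% of all genes, or 29.0% with those that rose. Pmaip1 fell by 0.78 ± 0.15 and Bcl2l11 by 0.62 ± 0.14 (limma adjusted p = 0.0175 for both), Bbc3 by 0.40 (limma adjusted p = 0.0318) and Bak1 by 0.30 (limma adjusted p = 0.0456) on the log2 scale. The median of all genes fell by 0.25 over the same interval. After median-ratio scaling the 4 changes were −0.49, −0.36, −0.12 and −0.02, none of which passed, and 0.942% of all genes did. With 1 mouse left out the number that fell was between 0 and 5, and it was 0 without mouse 4 of RT 3 h or mouse 1 of RT 12 h. From RT 12 h to RT 24 h 0 members passed with limma, as for all genes (0.00%), while 3 had an unadjusted p under 0.05. These were Bak1, Pmaip1 and Bcl2a1b, and all RT 24 h mice lay above all RT 12 h mice for each, by 0.52 for Pmaip1 (limma adjusted p = 0.146) and 0.93 for Bcl2a1b (limma adjusted p = 0.138).

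In MC-38 tumors Bcl2l11 rose at RT 24 h. It held 4.53, 7.42, 9.14 and 7.51 TPM in controls, 12.0, 7.89, 10.3 and 8.79 TPM at RT 3 h, 8.73, 10.7, 9.08 and 13.6 TPM at RT 12 h and 9.16, 13.3, 10.7 and 12.98 TPM at RT 24 h. The RT 24 h mice were all above the controls, mouse 1 of RT 24 h only just. The rise at RT 24 h was 0.68 ± 0.20 (1.60-fold, limma adjusted p = 0.0368), where 13.8% of all genes passed. It was 0.43 after median-ratio scaling (adjusted p = 0.0626). The call rested on several mice. It was lost without mouse 1, 2 or 4 of the controls or mouse 2, 3 or 4 of RT 24 h (adjusted p = 0.0521 to 0.109), and without control mouse 1, the library that stood apart, the change was 0.49 (adjusted p = 0.106).

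The window at the start of Bcl2l11 is shown because it was the BH3-only gene with a call in MC-38 tumors and separated groups in RM-9 tumors, and because BIM is a known target of forkhead factors. The gene lies on the plus strand of chromosome 2 (chr2:128126038-128162547, ENSMUSG00000027381), and the RefSeq window on GRCm38.p6 is chr2:128125788-128126087, plus strand. Capitals mark the forkhead letters TGTTTAC, found on the reverse strand 227 bases before the start. Of all windows, 3.65% hold these letters on either strand, as did 2 of the 14 windows of members, the other being 1 of the 3 windows of Bbc3.
Bcl2l11: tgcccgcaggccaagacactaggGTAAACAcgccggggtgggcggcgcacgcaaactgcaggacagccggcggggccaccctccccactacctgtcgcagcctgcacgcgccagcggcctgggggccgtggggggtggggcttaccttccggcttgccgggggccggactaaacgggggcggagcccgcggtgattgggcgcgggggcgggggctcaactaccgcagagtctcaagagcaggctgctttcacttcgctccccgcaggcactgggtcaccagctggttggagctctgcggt

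Pmaip1 was scarce in MC-38 tumors. It held 2.00, 1.44, 1.22 and 1.84 TPM in controls, 2.58, 2.53, 2.38 and 2.07 TPM at RT 3 h, 1.33, 1.81, 2.46 and 1.08 TPM at RT 12 h and 2.04, 2.08, 2.09 and 2.23 TPM at RT 24 h. The RT 3 h and RT 24 h mice were all above the controls, while the RT 12 h mice overlapped with them. None of the changes passed, at 0.46 ± 0.18 for RT 3 h (limma adjusted p = 0.207), with 0.01 at RT 12 h and 0.31 at RT 24 h. After scaling they were 0.28, −0.27 and 0.10 at the 3 times, and again none passed.

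Bid, which is cut by caspase-8 and links death receptors to mitochondria, had its highest values in irradiated MC-38 tumors. It held 22.2, 32.8, 38.4 and 30.1 TPM in controls, 37.7, 39.8, 46.5 and 51.1 TPM at RT 3 h, 42.8, 45.0, 42.3 and 43.9 TPM at RT 12 h and 35.4, 41.4, 44.9 and 43.1 TPM at RT 24 h. The RT 12 h mice were all above the controls, and at RT 3 h and RT 24 h 1 control, mouse 3, reached into the RT range. Bid rose by 0.52 ± 0.14 at RT 12 h (limma adjusted p = 0.0211), with 0.51 at RT 3 h (adjusted p = 0.135) and 0.43 at RT 24 h (adjusted p = 0.0565). After median-ratio scaling the change at RT 12 h was 0.17 (limma adjusted p = 0.0607), and that at RT 3 h passed instead, at 0.30 ± 0.06 (limma adjusted p = 0.0376). Without control mouse 1 neither passed, at 0.37 for RT 12 h on the deposited scale (adjusted p = 0.0517) and 0.28 for RT 3 h after scaling (adjusted p = 0.121), where 2 of 8 fits with 1 mouse left out kept the call. The RT 12 h call was also lost without mouse 2 or mouse 4 of that group (adjusted p = 0.0575 and 0.0535). In RM-9 tumors Bid ranged from 8.06 to 12.49 TPM over all 15 mice, with no separated group.

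Bbc3, which encodes PUMA, a strong activator of the effectors, had no rise that passed the test against control in either model. At RT 3 h it was at 0.13 ± 0.13 in RM-9 tumors (limma adjusted p = 0.551) and 0.06 after scaling. In MC-38 tumors it was at 0.27 ± 0.15 (limma adjusted p = 0.295) and 0.06 after scaling. In RM-9 tumors it held 13.1, 14.9, 15.7 and 13.7 TPM in controls, 15.5, 18.5, 12.2 and 17.3 TPM at RT 3 h, 12.6, 11.4, 10.4 and 12.9 TPM at RT 12 h and 11.8, 15.5 and 14.03 TPM at RT 24 h. Only the RT 12 h mice were apart from the controls, all below them (−0.27, limma adjusted p = 0.159; −0.06 after scaling). In MC-38 tumors it held 10.2, 15.3, 15.8 and 13.1 TPM in controls, 15.4, 14.8, 19.4 and 15.8 TPM at RT 3 h, 12.8, 15.0, 15.3 and 13.7 TPM at RT 12 h and 9.81, 13.04, 12.6 and 9.85 TPM at RT 24 h. The RT 24 h mice overlapped with the controls only through control mouse 1, and the change was −0.25 (limma adjusted p = 0.271). After median-ratio scaling the controls lay between 14.7 and 15.99 and the RT 24 h mice between 8.93 and 11.9. On that scale Bbc3 was lower by −0.50 ± 0.10 (0.707-fold, limma adjusted p = 0.00348), with 16% of all genes passing, and it passed in 8 of 8 fits with 1 mouse left out, at −0.50 without control mouse 1 (adjusted p = 0.0106).

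**Figure D3:**
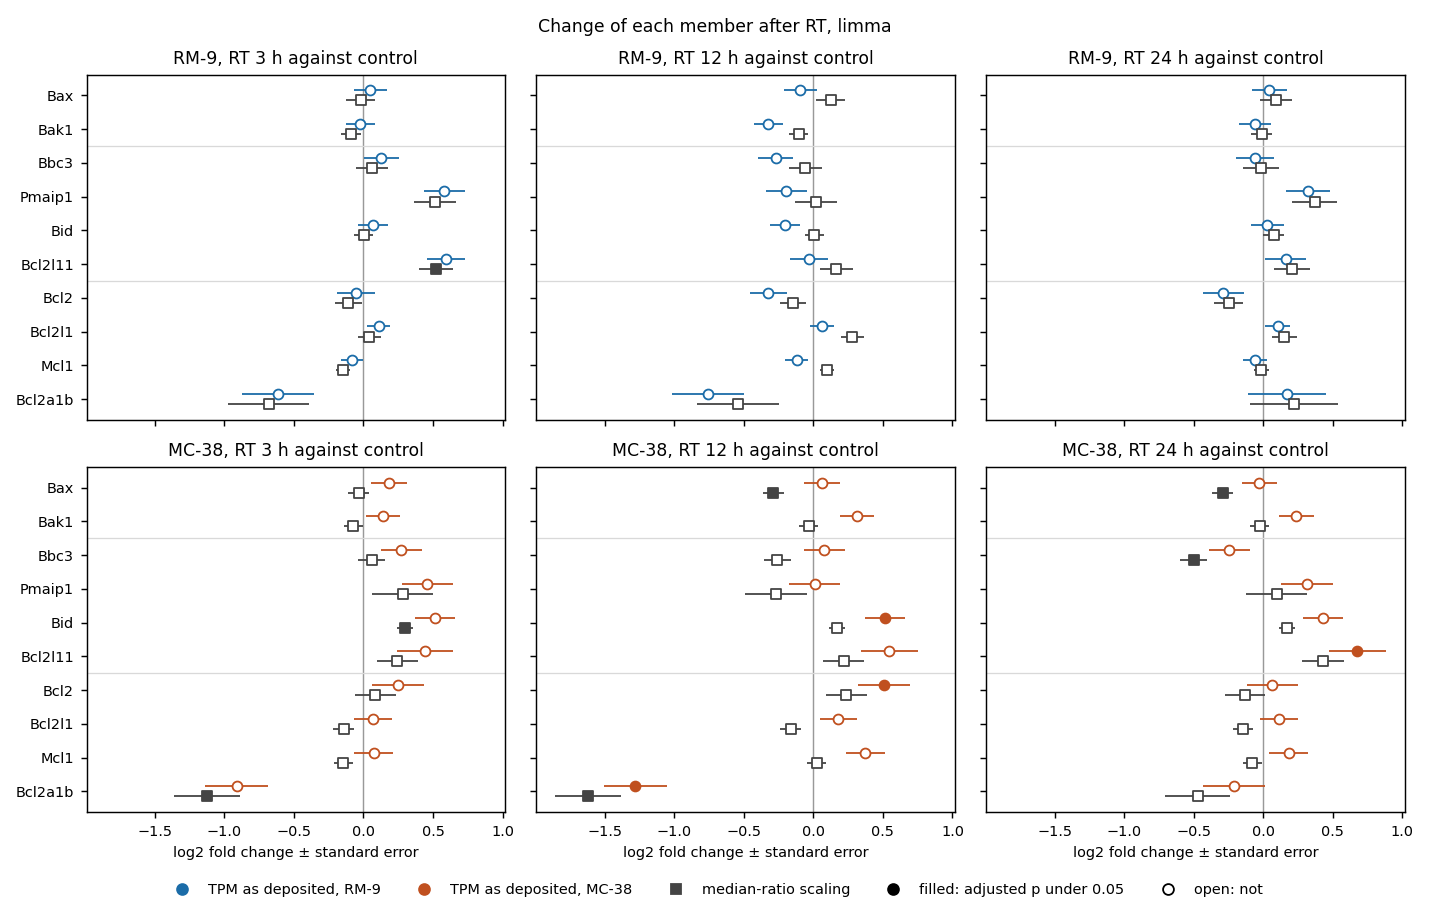
Log2 change from control of each member at RT 3 h, 12 h and 24 h in both tumor models, on the deposited TPM scale and after median-ratio scaling (points, estimates; bars, SE). The fall of Bcl2a1b at RT 12 h in MC-38 tumors was −1.28 and −1.62 on the 2 scales, while the rises of Bid and Bcl2 there shrank from 0.52 and 0.51 to 0.17 and 0.24.

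Among the pro-survival genes Bcl2a1b had the largest change from control on both scales. It encodes A1, a short-lived protein found mainly in blood cells, and is 1 of a few near-identical copies on chromosome 9 (chr9:89199209-89207827, plus strand, ENSMUSG00000089929). In MC-38 tumors it held 23.7, 32.7, 21.9 and 31.9 TPM in controls, 18.6, 11.04, 17.3 and 11.4 TPM at RT 3 h, 9.15, 8.998, 17.8 and 9.46 TPM at RT 12 h and 19.4, 22.8, 26.5 and 25.4 TPM at RT 24 h. Every RT 3 h and RT 12 h mouse was below every control, mouse 3 of RT 12 h stood above the 8.998 to 9.46 TPM of the other 3 in its group, and the RT 24 h mice were back among the controls. Bcl2a1b fell by 1.28 ± 0.23 on the log2 scale at RT 12 h (0.412-fold, limma adjusted p = 0.00553; −1.62 and adjusted p = 0.00247 after scaling). In this direction 2.59% of all genes passed. It passed in 8 of 8 fits with 1 mouse left out, at −1.34 without control mouse 1 (adjusted p = 0.0108). At RT 3 h the change was −0.91 ± 0.23 (limma adjusted p = 0.0959), and −1.12 after scaling (limma adjusted p = 0.0460), a call kept only without control mouse 3 when 1 mouse was left out in turn (adjusted p = 0.0537 to 0.159 without the others, and 0.135 without control mouse 1).

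From RT 12 h to RT 24 h Bcl2a1b rose by 1.07 ± 0.23 in MC-38 tumors (23.5 ± 3.14 against 11.4 ± 4.31 TPM, limma adjusted p = 0.0222; 1.15 and adjusted p = 0.0115 after scaling). It was the only member of the 10 to pass in that interval, against 1.68% of all genes, and 5.58% after scaling. The call was kept in 3 of 8 fits with 1 mouse left out on the deposited scale, missing without mouse 1, 2 or 4 of RT 12 h or mouse 3 or 4 of RT 24 h (adjusted p = 0.0707 to 0.0915), and in 8 of 8 after scaling. From RT 3 h to RT 12 h in MC-38 tumors 0 members passed with limma on either scale, against 0.00% and 0.663% of all genes, with 2 at an unadjusted p under 0.05 on the deposited scale.

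In RM-9 tumors Bcl2a1b held 25.6, 27.9, 22.0 and 23.4 TPM in controls, 10.5, 17.9, 17.02 and 19.8 TPM at RT 3 h, 19.2, 7.14, 16.98 and 18.04 TPM at RT 12 h and 34.4, 24.0 and 26.0 TPM at RT 24 h. As in MC-38 tumors all RT 3 h and RT 12 h mice were below all controls, but neither change passed (−0.62 ± 0.26 and −0.76 ± 0.26, limma adjusted p = 0.189 and 0.0723; −0.68 and −0.54 after scaling). The difference between the models at RT 12 h was −0.52 ± 0.36 (limma adjusted p = 0.224; −1.02 and adjusted p = 0.140 after scaling), so the fall was not shown to be greater in MC-38 tumors.

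The copies of Bcl2a1 in the tables moved with it. In 68.4% of the 75-base stretches of the Bcl2a1b transcript the sequence is shared with Bcl2a1a, Bcl2a1d or Gm29094, so reads could be assigned to any of them, and the copies are no separate evidence. At RT 12 h in MC-38 tumors Bcl2a1a went from 14.1 ± 2.32 to 5.96 ± 2.30 TPM (−1.22, limma adjusted p = 0.00889) and Bcl2a1d from 17.2 ± 2.79 to 7.10 ± 2.69 TPM (−1.27, limma adjusted p = 0.00810). The windows at the starts of Bcl2a1b and Bcl2a1a are shown because they let a reader see how alike this pair of copies is. They are from RefSeq on GRCm38.p6 at chr9:89199023-89199322 and chr9:88956670-88956969, both plus strand. They were the same at 254 of 256 aligned bases (99.2%). The window of Bcl2a1d, which is not shown, was less alike, at 73% with Bcl2a1b and 66.3% with Bcl2a1a. Capitals mark the PU.1-type ETS letters GAGGAAGT, 148 bases before the start in Bcl2a1b and 104 in Bcl2a1a, which 3.20% of all windows hold on either strand. Bak1 was the other member with a match, and the AP-1 letters TGACTCA and CRE letters TGACGTCA were in none of the 14 windows of members.
Bcl2a1b: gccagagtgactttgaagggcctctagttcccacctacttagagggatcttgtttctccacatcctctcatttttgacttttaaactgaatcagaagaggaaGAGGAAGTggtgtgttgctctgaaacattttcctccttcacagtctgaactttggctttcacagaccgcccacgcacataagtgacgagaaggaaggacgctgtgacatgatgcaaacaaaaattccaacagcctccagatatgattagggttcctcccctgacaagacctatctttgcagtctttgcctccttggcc
Bcl2a1a: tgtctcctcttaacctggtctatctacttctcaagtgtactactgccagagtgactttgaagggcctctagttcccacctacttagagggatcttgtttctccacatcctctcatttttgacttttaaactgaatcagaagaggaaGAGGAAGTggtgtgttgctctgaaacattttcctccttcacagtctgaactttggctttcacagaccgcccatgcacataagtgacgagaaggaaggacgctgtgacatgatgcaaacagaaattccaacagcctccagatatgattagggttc

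Macrophage markers moved with Bcl2a1b. The summed level of 8 such genes was 851 to 1361 TPM in MC-38 controls, 598 to 932 at RT 3 h, 310 to 736 at RT 12 h and 693 to 872 at RT 24 h, and 6 of 8 of the genes fell at RT 12 h on the deposited scale and 7 after scaling. In RM-9 tumors the sum was 383 to 606 TPM in controls, 270 to 411 at RT 3 h, 191 to 373 at RT 12 h, where 5 of 8 fell but none passed after scaling, and 453 to 572 at RT 24 h. Relative to that sum, Bcl2a1b stood at 2.12 to 3.05 TPM per 100 TPM of markers in MC-38 controls. It stood at 1.65 to 2.04 at RT 3 h, below all controls. At RT 12 h it was 1.83 to 3.06 and at RT 24 h 2.66 to 3.29, and both overlap with the controls. In RM-9 tumors the ratio was 3.86 to 5.74 in controls and 3.90 to 5.38, 3.74 to 6.13 and 5.31 to 6.02 at the 3 times, all overlapping. Markers of T cells were lower as well, with a sum of 25.6 to 36.7 TPM in MC-38 controls and 14.3 to 27.0 at RT 12 h, where 4 of 8 fell, and 8 after scaling. None of the macrophage or T cell markers was listed at 0 in all mice of a group, although Cd8a and Cd8b1 were at 0 in single RM-9 libraries. The part of these cells in the change of Bcl2a1b was not tested.

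**Figure D4:**
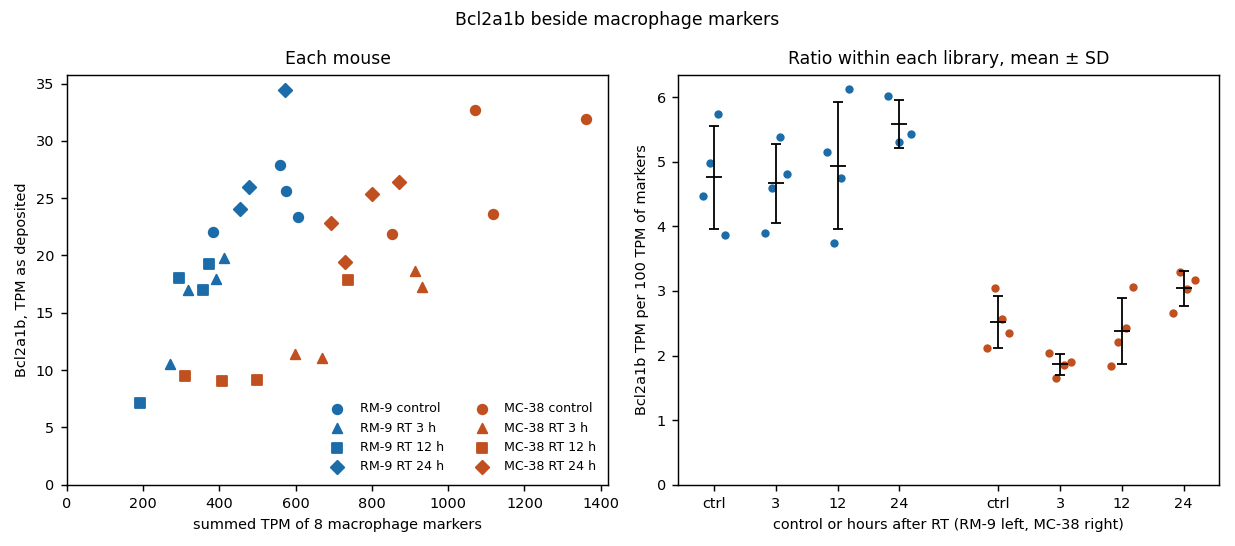
Bcl2a1b TPM (y axis) against the summed TPM of 8 macrophage markers (x axis) in each tumor, by model and group (left, points are single mice, linear axes), and Bcl2a1b TPM per 100 TPM of those markers by group (right, bars are means ± SD). All RT 12 h tumors lie below all controls of their model on both axes, at 310 to 736 TPM of markers in MC-38 and 191 to 373 in RM-9 tumors, and they overlap with RT 3 h tumors.

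Bcl2, the founding pro-survival gene, was scarce in both models. In MC-38 tumors it held 1.13, 1.97, 1.98 and 1.52 TPM in controls, 1.79, 2.13, 1.51 and 2.80 TPM at RT 3 h, 2.40, 3.20, 2.47 and 2.08 TPM at RT 12 h and 1.67, 1.94, 1.49 and 1.79 TPM at RT 24 h. The RT 12 h mice were all above the controls and above the RT 24 h mice, and Bcl2 rose by 0.51 at RT 12 h (limma adjusted p = 0.0486). It was 0.24 after median-ratio scaling (adjusted p = 0.267), and the call was lost without mouse 1 or 4 of the controls or any mouse of RT 12 h (adjusted p = 0.0651 to 0.153), with 0.38 without control mouse 1. In RM-9 tumors Bcl2 held 2.23, 2.41, 2.54 and 3.06 TPM in controls and 1.61, 2.21, 1.93 and 2.03 TPM at RT 12 h, all below the controls (−0.32, limma adjusted p = 0.120; −0.15 after scaling).

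Mcl1 and Bcl2l1 had no separated RT group in RM-9 tumors. Mcl1, whose protein is made and destroyed quickly, ranged from 44.5 to 57.2 TPM over the 15 RM-9 mice, and Bcl2l1, the gene of BCL-XL, from 28.8 to 38.4 TPM. Mcl1 was −0.04 from RT 3 h to RT 12 h on the deposited scale and 0.25 after median-ratio scaling (limma adjusted p = 0.0338), a call kept in 1 of 8 fits with 1 mouse left out. In MC-38 tumors Mcl1 held 74.3, 109.6, 117 and 100.5 TPM in controls and 106, 139.6, 123 and 148 TPM at RT 12 h. The ranges overlapped, and the change of 0.37 did not pass (limma adjusted p = 0.0541) and was 0.02 after scaling. Bcl2l1 in MC-38 tumors lay between 21.6 and 33.4 TPM in all 16 mice, with changes of 0.07 at RT 3 h (limma adjusted p = 0.769) and no separated group.

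Not overlapping with the controls were 2 of 10 members at RT 3 h in MC-38 tumors, against 8.18% of all genes, 4 of 10 at RT 12 h, against 36.5%, and 2 of 10 at RT 24 h, against 15.7%. At RT 12 h these were Bak1, Bid and Bcl2 above and Bcl2a1b below the controls. After median-ratio scaling the members past the test in MC-38 tumors were Bid and Bcl2a1b at RT 3 h, where 0.650% of all genes passed. They were Bax and Bcl2a1b at RT 12 h, where 16.2% passed, and Bax and Bbc3 at RT 24 h, where 16% passed. In RM-9 tumors on that scale it was Bcl2l11 at RT 3 h, where 2.73% passed, and none at RT 12 h or RT 24 h, where 0.136% and 0.00% passed.

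The change after RT differed between the models for 4 members at RT 12 h on the deposited scale, against 45.4% of all genes. The MC-38 change minus the RM-9 change was 0.64 ± 0.16 for Bak1 (limma adjusted p = 0.00548), 0.72 ± 0.18 for Bid (limma adjusted p = 0.00492), 0.83 ± 0.22 for Bcl2 (limma adjusted p = 0.00689) and 0.49 ± 0.16 for Mcl1 (limma adjusted p = 0.0190), beside a median of 0.50 over all genes. The call of Mcl1 was lost without MC-38 control mouse 1 (0.36, adjusted p = 0.0569). After median-ratio scaling the 4 differences were 0.11, 0.20, 0.40 and −0.04, and none passed, while Bcl2l1 did at −0.41 ± 0.11 (limma adjusted p = 0.0420), where 2.84% of all genes passed, a call kept in 4 of 16 fits with 1 mouse left out. At RT 3 h and RT 24 h 0 members differed with limma on either scale, against 0.00% and 1.81% of all genes on the deposited scale and 0.0391% and 1.72% after scaling, with 1 member, Bid, at an unadjusted p under 0.05 at each time.

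Set within each library, the pro-death members stood higher against the pro-survival members in the means of every irradiated group than in those of the controls. The balance was the mean log2(TPM + 0.5) of the 6 pro-death members minus that of the 4 pro-survival members, which does not depend on the scaling between libraries beyond the small added constant. In RM-9 tumors it was 0.307 ± 0.053 (SD, n = 4) in controls, 0.700 ± 0.131 at RT 3 h, 0.406 ± 0.170 at RT 12 h and 0.398 ± 0.089 (n = 3) at RT 24 h, and the RT 3 h mice were all above the controls. In MC-38 tumors it was 0.084 ± 0.065 in controls, 0.550 ± 0.078 at RT 3 h, 0.393 ± 0.054 at RT 12 h and 0.278 ± 0.038 at RT 24 h, with every irradiated mouse above every control. The changes from control were 0.39, 0.10 and 0.09 in RM-9 tumors with all members and 0.24, −0.06 and 0.15 without Bcl2a1b, so that the change at RT 24 h was larger without it. In MC-38 tumors they were 0.47, 0.31 and 0.19 with all members and 0.20, −0.10 and 0.11 without Bcl2a1b. At RT 12 h the change was thus above 0 in both models with Bcl2a1b and below 0 without it, and no p is given, since the members were chosen with earlier results known.

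**Figure D5:**
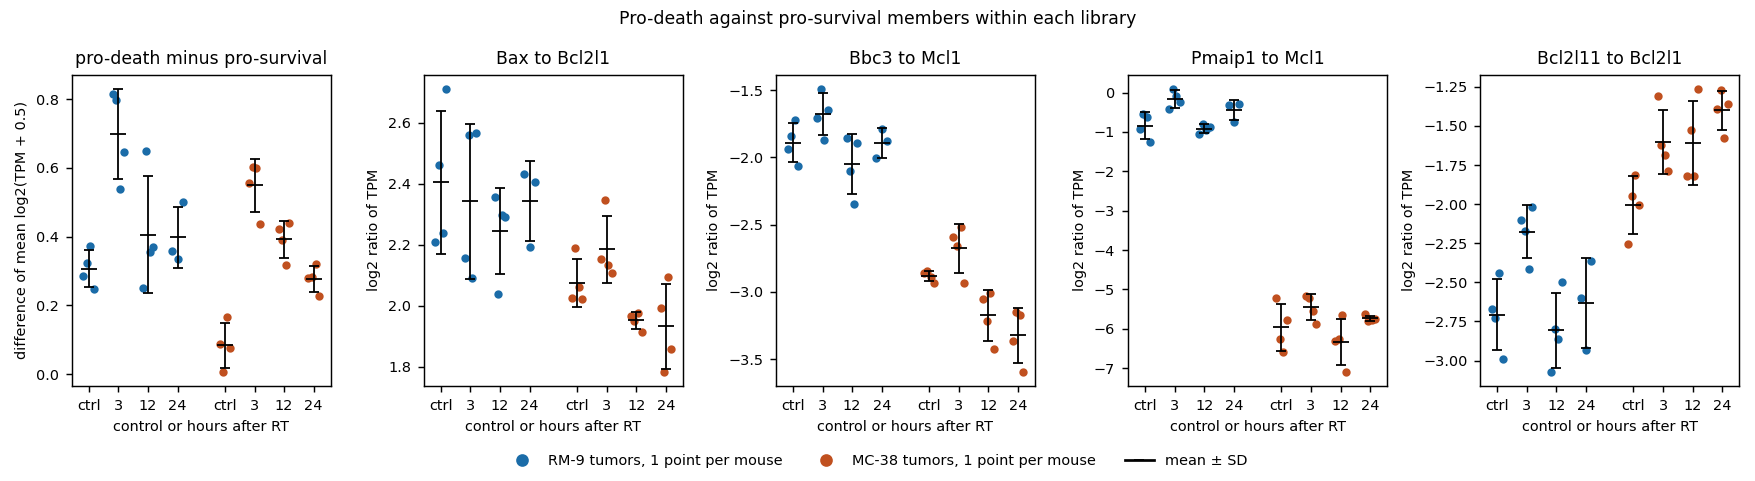
Mean log2(TPM + 0.5) of the pro-death members minus that of the pro-survival members in each tumor (left), and the log2 ratios of Bax to Bcl2l1, Bbc3 to Mcl1, Pmaip1 to Mcl1 and Bcl2l11 to Bcl2l1 (points, single mice; bars, group means ± SD; each panel has its own y axis). In the left panel the MC-38 groups stood at 0.084 in controls and 0.550, 0.393 and 0.278 after RT.

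Ratios of known binding partners within a library were taken as well. The log2 ratio of Pmaip1 to Mcl1 was higher at RT 3 h in RM-9 tumors by 0.67, with no overlap with controls. That of Bcl2l11 to Bcl2l1 was higher without overlap at RT 3 h in RM-9 tumors (0.53) and at RT 3 h and RT 24 h in MC-38 tumors (0.40 and 0.60). That of Bbc3 to Mcl1 was lower without overlap at RT 12 h and RT 24 h in MC-38 tumors (−0.29 and −0.44), and that of Bax to Bcl2l1 at RT 12 h in MC-38 tumors (−0.12). These differences are descriptions over 4 mice a group and carry no test.

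Around the family, p53 targets passed the test in both models. Of 12 p53 feedback and arrest targets, 6 rose at RT 3 h, 3 at RT 12 h and 0 at RT 24 h in RM-9 tumors with limma. Of all genes 0.228%, 8.37% and 0.00% passed there. At RT 24 h 5 of the targets had an unadjusted p under 0.05. Of 11 tested in MC-38 tumors 3, 6 and 4 rose, against 0.0637%, 31.1% and 13.8% of all genes that passed. None fell at any time in either model. After median-ratio scaling 8, 3 and 0 rose in RM-9 and 3, 3 and 3 in MC-38 tumors. At RT 3 h in RM-9 tumors Trp53inp1 went from 3.54 to 13.2 TPM (1.72, limma adjusted p = 0.00163), the cell cycle inhibitor Cdkn1a from 97.6 to 190.1 TPM (0.96, limma adjusted p = 0.0106) and Mdm2 from 644 to 1517 TPM (1.27, limma adjusted p = 0.0150). These genes were named for their small p, and the median change of the whole list was 0.81. The known p53 targets among the members were below that median, with Bax at 0.05, Bbc3 at 0.13 and Pmaip1 at 0.58 in the same mice. In MC-38 tumors at RT 3 h Trp53inp1, Mdm2 and Cdkn1a rose by 1.44, 1.11 and 0.80, beside 0.18, 0.27 and 0.46 for Bax, Bbc3 and Pmaip1. The median of the list was 0.43 there, so Pmaip1 was not below it, nor was it after scaling, at 0.28 against 0.22.

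Downstream of the mitochondria, 11 genes of the apoptosome, caspases and their inhibitors were tested. None rose or fell in RM-9 tumors on the deposited scale with limma (3, 1 and 0 at an unadjusted p under 0.05 at the 3 times). In MC-38 tumors 4 rose at RT 12 h, against 31.1% of all genes that passed, and 3 at RT 24 h, against 13.8%. At RT 24 h these were Apaf1, the scaffold of the apoptosome, from 11.1 to 17.8 TPM (0.66, limma adjusted p = 0.0121), and the inhibitors of apoptosis Birc2 (0.70, limma adjusted p = 0.0161) and Birc3 (0.91, limma adjusted p = 0.00496). After scaling 0 of the 11 were higher and 1 lower at RT 12 h in MC-38 tumors, and 3 were higher at RT 24 h. In RM-9 tumors after scaling Apaf1 was higher at RT 3 h, by 0.64 (limma adjusted p = 0.00776), and Birc5, an inhibitor of apoptosis that also acts in mitosis, was lower at −0.63 (limma adjusted p = 0.0433). Of 7 death receptor genes that act on Bid, 3 rose at RT 12 h in MC-38 tumors, against 31.1% of all genes that passed, and 4 at RT 24 h, against 13.8%. Among them were Casp8, which cuts Bid, from 38.1 to 56.3 TPM at RT 24 h (0.58, limma adjusted p = 0.0144), and Fas from 3.53 to 6.44 TPM (0.78, limma adjusted p = 0.0191). After scaling 0 of the 7 passed at RT 12 h in MC-38 tumors, and 1 was higher and 2 lower at RT 24 h. In RM-9 tumors the adaptor Fadd fell at RT 12 h on the deposited scale, by 0.44 (limma adjusted p = 0.0309), and was at −0.26 after scaling (adjusted p = 0.203). After scaling the receptor gene Tnfrsf10b was higher at RT 3 h, by 0.37 (limma adjusted p = 0.0320).

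Of the family genes outside the 10 members, 5 of 8 pro-death genes could be tested for RM-9 and 6 for MC-38. In MC-38 tumors 2 of the 6 rose at RT 12 h and 1 at RT 24 h, where 31.1% and 13.8% of all genes passed. Bik and Bok rose at RT 12 h in MC-38 tumors, Bik from 0.723 to 1.84 TPM (0.92, limma adjusted p = 0.0367) and Bok from 35.0 to 45.5 TPM (0.41, limma adjusted p = 0.0467), and Bik rose at RT 24 h (1.197, limma adjusted p = 0.0198), while after scaling neither passed at either time. Of 6 other pro-survival or divergent genes, 5 were tested, and at RT 12 h in MC-38 tumors Bcl2l2, the gene of BCL-W, rose (0.59, limma adjusted p = 0.0232; 0.25 after scaling), besides the fall of Bcl2a1a and Bcl2a1d. In RM-9 tumors no gene of either list passed with limma at any time, with 1, 2 and 1 pro-death and 4, 2 and 0 pro-survival or divergent genes at an unadjusted p under 0.05.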

How the data were processed

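Messenger RNA of 31 whole tumors was made into stranded libraries and read as single 75-base reads. For each library the authors deposited 1 table of 46072 genes. It holds TPM, which the authors set to 1 fixed total per library, FPKM as deposited beside it, and coverage, deposited as the mean depth over a gene's bases. The aligner, the counting program and the use of strand are not given in the sources used here. The submitters' processing notes name bcl2fastq 2.17 and build GRCm39. Start or end matched GENCODE M21 (GRCm38) for 91.1% of shared genes, so coordinates are printed as the files hold them, on GRCm38. Repeated entries of a gene were summed, and depth was derived from coverage over FPKM.

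Tests used limma 3.58.1 (R 4.3.3), with eBayes and a trend, on log2(TPM + 0.5). A gene entered with a mean TPM of 0.5 or more, which left 14013 genes in RM-9, 15698 in MC-38 and 15358 over both models. The 4 groups of a model shared 1 fit, and the models were compared in 1 fit of 8 groups. Benjamini-Hochberg adjustment ran over all genes tested in a comparison, and adjusted p under 0.05 passed. Changes are on this log2 scale, which understates those of low genes. Permutation tests were exact and two-sided. The tables hold no read counts, so no counting error is given. In simulated data, 94 of 100 genes changed by 1 log2 unit were recovered for RT 12 h in RM-9, and 81 of 100 for RT 12 h in MC-38. Unchanged genes called were 10 and 15. The changed genes had a mean TPM of at least 5, and the noise was independent, with no shift shared within a library. Smaller changes, as most members had, and changes of lower genes were not simulated. Other steps ran in Python 3.11.15 with scipy 1.17.1, pandas 2.3.3, numpy 2.4.6 and matplotlib 3.10.9.

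Genes named are the 10 members in every comparison, up to 4 genes of each pathway list by smallest p among those that passed, and for each member the 3 genes of most alike pattern where the lower correlation reached 0.8. Of the lists, 1 pathway gene and 1 tissue marker are not reported here, and the counts leave them out. The members, lists and tests were chosen with earlier results of these data known. Alternatives were other pseudocounts, filters and scalings, fits of the compared groups alone, eBayes with no trend, a replicate block, 1 mouse left out at a time, Dunnett's comparisons on TPM and, for the balance, leaving out Bcl2a1b. Coverage in place of TPM, and median-ratio scaling combined with the block, with coverage or with a mouse left out, were chosen after seeing the data.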

Additional observations from a re-analysis of the deposited data

Results flagged for a closer look

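Of 70 groups of 4 mice, 1 for each member and group, 3 held a mouse whose distance to its nearest neighbour was large against the range of the group, and chance alone marks about 1 in 20 such groups. Bcl2 was 2.98 TPM in mouse 4 of RM-9 RT 3 h, above 2.23 to 2.33 TPM in the others. Bcl2l1 was 24.1 TPM in mouse 1 of MC-38 RT 24 h, below 31.9 to 33.4 TPM in the others. Bcl2a1b was 17.8 TPM in mouse 3 of MC-38 RT 12 h, above 8.998 to 9.46 TPM in the others.

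The change at RT 12 h differed between the models for 4 members on the deposited scale by the limma contrast. MC-38 minus RM-9 was 0.64 for Bak1 (adjusted p = 0.00548), 0.72 for Bid (adjusted p = 0.00492), 0.83 for Bcl2 (adjusted p = 0.00689) and 0.49 for Mcl1 (adjusted p = 0.0190). After median-ratio scaling the same limma contrast gave 0.11, 0.20, 0.40 and −0.04, with adjusted p of 0.576, 0.206, 0.162 and 0.834.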

How the results depend on the processing

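The number of members past the test changed with the scaling of the libraries, the filter, the groups fitted and the test, and the cause was not tested. In RM-9 tumors at RT 3 h it was 0 as reported and 1 with median-ratio scaling, with TPM rescaled without mitochondrially encoded genes, and with coverage on either scale, and 2 with Dunnett's comparisons, which also gave 2 at RT 12 h in place of 0. From RT 3 h to RT 12 h it was 4 as reported, 1 with median-ratio scaling, mitochondrial rescaling or scaled coverage, 2 without a filter or with only the compared groups, and 0 with coverage. In MC-38 tumors at RT 3 h it was 0 as reported, 2 with median-ratio scaling or coverage on either scale, 1 with mitochondrial rescaling and 3 with Dunnett's comparisons. At RT 12 h it was 3 as reported, 1 with only the compared groups and 5 with Dunnett's comparisons. At RT 24 h it was 1 as reported, 2 with median-ratio scaling, a mean TPM of at least 5 or Dunnett's comparisons, 3 with mitochondrial rescaling or coverage on either scale, and 0 without a filter or with only the compared groups. From RT 12 h to RT 24 h it was 1 as reported and 0 without a filter. For the difference between the models at RT 12 h it was 4 as reported and 1 with median-ratio scaling or coverage on either scale. The calls of Bcl2a1b at RT 12 h in MC-38 tumors were kept under every alternative run in limma.

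With 1 mouse left out in turn the number was 0 to 1 at RT 3 h in RM-9 tumors, where the 1 came without control mouse 3, and 0 to 5 from RT 3 h to RT 12 h. In MC-38 tumors it was 0 to 2 at RT 3 h, with 2 without control mouse 3, 1 to 6 at RT 12 h, with 1 without control mouse 1 or mouse 2 or 4 of RT 12 h and 6 without control mouse 3, 0 to 2 at RT 24 h, with 0 without control mouse 1, and 0 to 1 from RT 12 h to RT 24 h. It was 3 to 5 for the difference between models at RT 12 h and stayed at 7 between controls. The balance changes were 0.354 to 0.446, 0.0175 to 0.150 and 0.0400 to 0.122 at RT 3 h, 12 h and 24 h in RM-9 tumors. For MC-38 they were 0.439 to 0.503, 0.283 to 0.336 and 0.168 to 0.221. Without Bcl2a1b they were 0.241 at RT 3 h in RM-9 and 0.205, −0.100 and 0.111 in MC-38 tumors.

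Directions turned for changes that were near 0 or near the shift of all genes. Mcl1 from RT 3 h to RT 12 h in RM-9 tumors went from −0.04 to 0.25 with median-ratio scaling, 0.11 with mitochondrial rescaling and 0.20 and 0.24 with coverage and scaled coverage. Bax at RT 12 h in MC-38 tumors went from 0.06 to −0.29, −0.077, −0.22 and −0.29 in the same order, and to between −0.077 and 0.13 with 1 mouse left out, and at RT 24 h from −0.03 to between −0.17 and 0.059. Bak1 at RT 12 h in MC-38 tumors went from 0.32 to −0.033 with median-ratio scaling and −0.022 with scaled coverage. For the difference between models at RT 12 h, Bcl2l1 went from 0.12 to −0.41, −0.16, −0.37 and −0.42, and to between −0.0031 and 0.18 with 1 mouse left out, and Mcl1 to −0.039 with median-ratio scaling and −0.055 with scaled coverage. Between controls, Bcl2l11 went from 0.54 to −0.084 with median-ratio scaling and −0.085 with scaled coverage, Bbc3 from −0.09 to between −0.17 and 0.034 and Bcl2l1 from −0.12 to between −0.19 and 0.00075 with 1 mouse left out.

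Different groups of mice were killed at each time, so equal mouse numbers in the labels do not mark the same mouse. Of 21 same-numbered pairs for RM-9 and 24 for MC-38, 5 and 7 had deviations that correlated above 0.1, with medians of −0.06 and −0.07. The highest values were 0.317 and 0.554. Whether mice of equal number shared any handling cannot be told from these values. With the replicate block the number of members past the test was 6 at RT 12 h and 2 at RT 24 h in MC-38 tumors. With the replicate block and median-ratio scaling together it was 0 from RT 3 h to RT 12 h in RM-9 tumors, 2 at RT 24 h in MC-38 tumors and 0 for the difference between models at RT 12 h. That fit also gave 0.25 for Mcl1 from RT 3 h to RT 12 h in RM-9 tumors, −0.29 for Bax and −0.033 for Bak1 at RT 12 h in MC-38 tumors, −0.41 for Bcl2l1 and −0.039 for Mcl1 between models, and −0.084 for Bcl2l11 between controls.

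Tables without read counts, 3 or 4 mice a group, controls of 1 time only and shared reads among the Bcl2a1 copies limit what can be said of single members.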

Other observations

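Among 12246 genes whose mean TPM reached 1 in both models, the genes whose median-ratio scaled levels ran most alike to a member in both models, taken by the lower of the Pearson r over 15 RM-9 and over 16 MC-38 libraries, reached 0.8 for 3 of the 10 members. The libraries share groups, depth and tissue makeup, so these values are descriptions. Besides its copies Bcl2a1d and Bcl2a1a (lower r of 0.977 and 0.973), Bcl2a1b ran most alike to Cyba, a subunit of the phagocyte NADPH oxidase, at 0.924. Bax ran most alike to Bscl2 at 0.823, Siva1, a gene of a pro-apoptotic adaptor, at 0.812 and Snrpg, of the spliceosome core, at 0.811. Bcl2l1 ran most alike to Emc7 at 0.837 and Emc4 at 0.831, subunits of the complex that inserts proteins into the endoplasmic reticulum membrane, and to H13 at 0.811.

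Some B cell, neutrophil and endothelial markers rose at RT 24 h in MC-38 tumors by the limma test. B cell markers summed to 8.17 to 14.1 TPM in MC-38 controls and 19.6 to 23.9 TPM at RT 24 h, where 2 of 4 tested rose on both scales. Neutrophil markers summed to 29.8 to 42.2 TPM in MC-38 controls and 48.7 to 155 TPM at RT 24 h, where 1 of 7 tested rose on the deposited scale and none after scaling. Mmp9, which other cells also make, reached 125 TPM in 1 MC-38 library and so held most of the highest sum, and Ly6g, the defining neutrophil marker, was listed at 0 in MC-38 controls and at RT 24 h. Endothelial markers summed to 44.1 to 58.3 TPM in MC-38 controls and 59.97 to 77.8 TPM at RT 24 h, where 2 of 6 rose on the deposited scale and none after scaling.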
